A study of Rattus norvegicus with 5 samples.

Results

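Axon guidance genes encode the ligands and receptors by which growing nerve fibres and their synapses are attracted or repelled. The 55 genes described here are the semaphorins (19), plexins (5), neuropilins (2), netrins (4), Slits (3), Robos (4), Eph receptors (11) and ephrins (7). They were taken by a pattern of gene names from the 17321 rows of the count table. RNA came from the lumbar L4-L6 dorsal horn, the part of the spinal cord that receives sensory fibres, of Sprague Dawley rats. There were 3 CCI libraries and 2 SHAM libraries, all from tissue taken 9 days after surgery. CCI commonly stands for chronic constriction injury, in which loose ties around a nerve model neuropathic pain, and SHAM is the control surgery. No age or sex is given in the labels used here, and they do not say whether each library came from its own rat, so the spread behind each p-value is that between libraries and may be technical.

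Semaphorins are secreted or membrane-bound ligands that signal through plexins, and the secreted class 3 semaphorins bind neuropilins as co-receptors. Netrins are secreted laminin-like cues, and Slits are secreted repellents read by Robo receptors, best known for steering axons at the midline of the spinal cord. Ephrins are held on the cell surface and signal on contact through Eph receptor tyrosine kinases, in both directions. In adult tissue many of these genes are also known from glia, blood vessels and immune cells.

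All 55 genes were measured well enough to be tested, each with 10 or more counts in at least 2 libraries of each group. The median was 581 counts per gene and library, and 44 genes had 100 or more counts in every library. Fractional estimated counts, which arise where reads fit more than 1 row and make a level uncertain, were found in 10 of the 55 genes (Epha1, Epha4, Ephb3, Plxna3, Robo4, Sema4c, Sema4f, Sema5a, Sema6b and Sema6d). Total estimated counts ran from 20053353 to 23673198 per library. The share of ribosomal RNA was 16.0% in CCI 3 against 2.18% to 2.71% in the rest. The libraries CCI 2 and CCI 3 stood apart in markers of tissue around the cord, with summed meningeal fibroblast markers at 898 and 773 CPM (counts scaled to library size) against 136 CPM in CCI 1 and, in SHAM, 146 and 197 CPM. Markers of neurons summed to 3174 to 3590 CPM in CCI and to 3881 and 4176 CPM in SHAM, and none of the 10 was absent. Their log2 fold changes ran from -0.68 for Tubb3 to 0.21 for Syt1, with a median of -0.07. None of them passed the test described below. Motor neuron markers, which belong to the ventral horn, were also present, at 131 to 380 CPM in CCI and at 578 and 838 CPM in SHAM.

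After CCI, Robo3 and the plexin gene Plxnb2 were higher and the semaphorin gene Sema3a was lower; the other 52 of the 55 genes did not pass the test. A gene was called when edgeR's quasi-likelihood test gave an adjusted p of at most 0.05 over all 13511 tested genes with a fold change of at least 1.5. The 3 called genes are 5.45% of the 55, against 2.84% of all tested genes (2.58% higher, 0.259% lower). An unadjusted p under 0.05 was found for 13 of the 55 genes (23.6%), against 15.9% of all tested genes. All CCI libraries lay above both SHAM libraries for 10 genes (18.2%, against 18.6% of all genes), and below them for 13 genes (23.6%, against 18% of all genes). The median log2 fold change of the 55 genes was 0.10, and that of all tested genes was 0.01. In 27 of the 55 genes (49.1%) the log2 fold change lay within 0.2 of 0, against 57.3% of all tested genes.

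**Figure D1:**
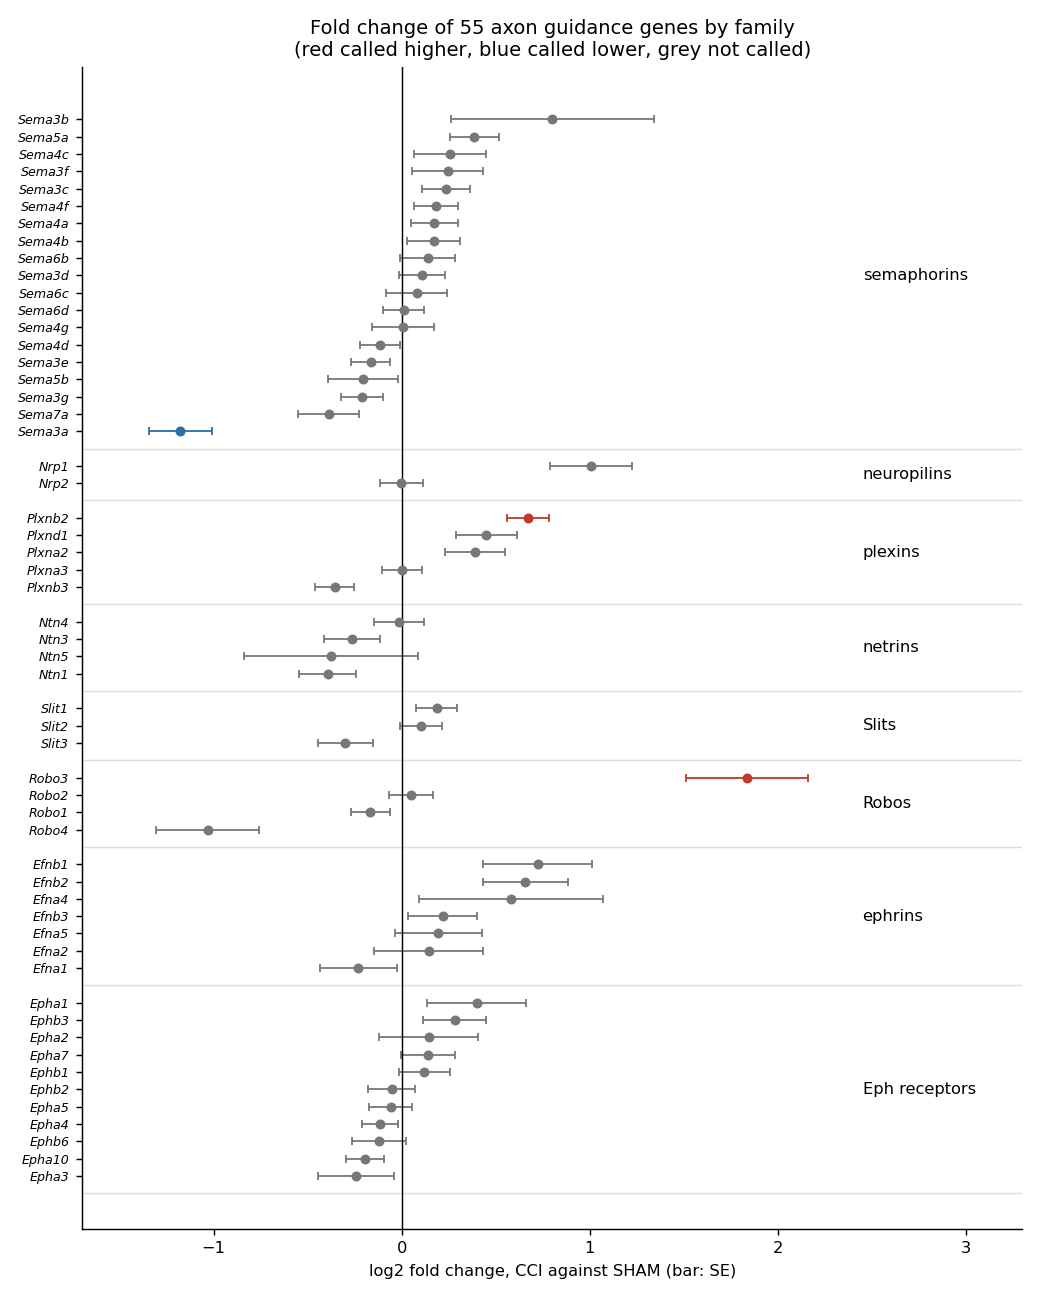
The log2 fold change of CCI against SHAM (horizontal axis) for each of the 55 genes, grouped by family, with a bar of 1 SE to each side. Robo3 (1.84) and Plxnb2 (0.67) are called higher, Sema3a (-1.18) is called lower, and 27 of the 55 genes lie within 0.2 of 0.

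Sema3a encodes a secreted semaphorin that repels growing axons, and is known from motor neurons among other cells of the cord. It stood at 10.3, 8.42 and 9.12 CPM in CCI 1, CCI 2 and CCI 3 and at 24.0 and 17.9 CPM in SHAM 1 and SHAM 2. Every CCI library was below both SHAM libraries, and the CCI values lay close together. Sema3a fell by 1.18 on the log2 scale (SE 0.17, 0.442 of the SHAM level, adjusted p = 0.00649), the largest decrease among the 55 genes. The counts behind it were 172 to 223 in CCI against 359 and 529 in SHAM. Without SHAM 1 the log2 fold change was -0.95 and the call was lost (adjusted p = 0.148). It held with each other library left out, where the value ranged from -1.38 to -1.11. Leaving out both CCI 2 and CCI 3 leaves CCI 1 alone against the SHAM pair, which then gives the spread for both groups, so such values are no support for a call. For Sema3a this value was -1.04. In tissue RNA, fewer cells of a type and less RNA per cell cannot be told apart.

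The motor neuron markers were lower in the same libraries as Sema3a. Of 8 such markers, 5 fell and none rose, with a median log2 fold change of -1.65, and their summed level ran in the order CCI 2, CCI 3, CCI 1, SHAM 2, SHAM 1 from lowest to highest. The levels of Sema3a ran in that same order. Within CCI, though, the summed markers spread from 131 to 380 CPM and Sema3a only from 8.42 to 10.3 CPM. The marker Prph, which was not called, gave 235 CPM of the sum in CCI 1 and 238 CPM in SHAM 2. None of the markers was at 0. Chat, which makes acetylcholine, was 25.9 to 39.7 CPM in CCI against 60.2 and 77.1 CPM in SHAM. The part of motor neuron content in the Sema3a difference was not tested.

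No other semaphorin gene passed the test. The other secreted class 3 members ranged in log2 fold change from -0.21 for Sema3g to 0.80 for Sema3b. Sema5a, a membrane semaphorin with thrombospondin repeats, stood at 168, 198 and 214 CPM in CCI and at 136 and 159 CPM in SHAM. Its groups did not overlap, and its log2 fold change of 0.39 (SE 0.13, adjusted p = 0.188) did not pass. Its level is uncertain because of fractional counts. Sema7a, a lipid-anchored semaphorin that also binds integrins, stood at 116, 79.9 and 88.6 CPM in CCI and at 133 and 115 CPM in SHAM. CCI 1 lay between the SHAM values, and the difference did not pass (log2 fold change -0.39, SE 0.16, adjusted p = 0.300). The family had 13 genes above and 6 below 0 (9 above without CCI 3 or without SHAM 1), with a median of 0.11. In the edgeR fit 3 of the 19, including Sema3a, had an unadjusted p under 0.05. Of all tested genes, 52.0% had a log2 fold change above 0 and 15.9% had such a p.

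Sema3b was named after its values were seen, because it split the CCI libraries. It stood at 9.72, 23.4 and 33.4 CPM in CCI 1, CCI 2 and CCI 3 and at 12.1 and 13.2 CPM in SHAM. CCI 1 was below both SHAM libraries and the other CCI libraries were above them, so the groups overlapped (log2 fold change 0.80, SE 0.54, adjusted p = 0.526). Efnb1, a transmembrane ephrin, had a similar split, with 5.79, 11.7 and 9.39 CPM in CCI against 5.27 and 5.60 CPM in SHAM (log2 fold change 0.72, SE 0.29, adjusted p = 0.273). Both genes were called higher when CCI 1 was left out, at 1.16 for Sema3b and 0.96 for Efnb1. With CCI 2 and CCI 3 both left out, Sema3b turned to -0.40. The meningeal fibroblast markers (summed levels above) were split in the same way, as were Schwann cell markers, at 187, 415 and 839 CPM in CCI against 180 and 191 CPM in SHAM. None of the 12 fibroblast or 10 Schwann cell markers was called, and none was at 0 in every library. Their part in the levels of Sema3b and Efnb1 was not tested.

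**Figure D2:**
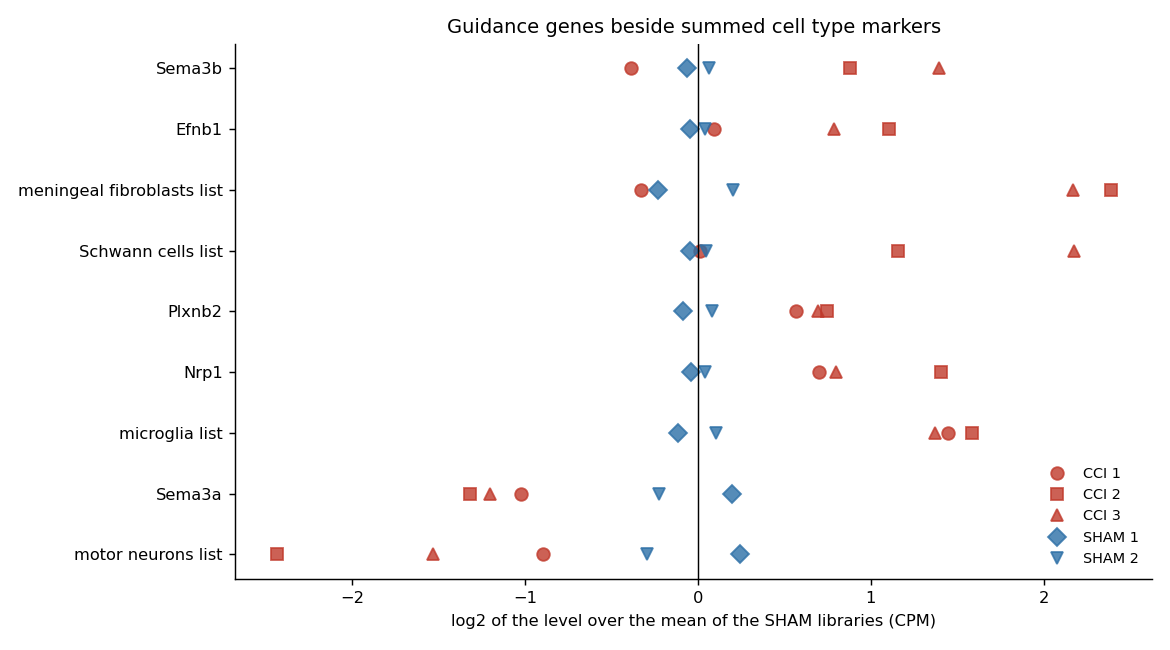
The log2 of each library's CPM over the mean of the SHAM libraries (horizontal axis) for 5 guidance genes and for the summed markers of 4 cell types, with 1 symbol per library. Sema3b, Efnb1 and the fibroblast and Schwann cell markers are high in CCI 2 and CCI 3 and near SHAM in CCI 1, while Plxnb2, Nrp1 and the microglia markers are high in all 3 CCI libraries and Sema3a and the motor neuron markers are low in all 3.

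Among the receptors of semaphorins, Plxnb2 rose. It encodes a plexin that binds class 4 semaphorins. Its level was 97.2, 110 and 106 CPM in CCI against 61.9 and 69.6 CPM in SHAM, so the groups were well separated. The log2 fold change was 0.67 (SE 0.11, 1.59-fold, adjusted p = 0.0129), on 1362 to 2775 counts per library. The call was lost without SHAM 1 (0.59, adjusted p = 0.222) and without SHAM 2 (0.75, adjusted p = 0.0895). In CCI 1 alone against SHAM the log2 fold change was 0.55 and did not pass (adjusted p = 0.0508). Of the class 4 semaphorin genes tested, none passed, with log2 fold changes from -0.12 for Sema4d to 0.26 for Sema4c.

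Nrp1 encodes a co-receptor of Sema3a and of vascular endothelial growth factor. It stood at 85.3, 139 and 91.4 CPM in CCI and at 51.0 and 53.9 CPM in SHAM. Every CCI library was above SHAM, with CCI 2 far above the rest. The log2 fold change of 1.01 (SE 0.22, 2.01-fold) narrowly missed the threshold (adjusted p = 0.0635). Without CCI 2 it was 0.75 and was called (adjusted p = 0.00428), and without CCI 1 it was 1.14 and was called (adjusted p = 0.0159). In CCI 1 alone against SHAM it was 0.69. The likelihood ratio test (adjusted p = 0.000493) and DESeq2 (adjusted p = 0.000109) also called it. Nrp1 was not called by limma-voom (adjusted p = 0.0732) or without CCI 3 (log2 fold change 1.10, adjusted p = 0.116). Nor was it called without SHAM 1 (0.97) or without SHAM 2 (1.04). Nrp2, the other neuropilin gene, stood at 37.8 to 42.7 CPM in CCI and at 38.3 and 42.9 CPM in SHAM (log2 fold change 0.00, SE 0.11, adjusted p = 0.996).

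Microglia markers were higher in the same libraries as Plxnb2 and Nrp1. Of 12 microglia markers 9 were called higher and none lower, with a median log2 fold change of 1.43, and none was at 0. Their summed level was 1516, 1669 and 1442 CPM in CCI against 513 and 599 CPM in SHAM. Endothelial markers, which bear on Nrp1, summed to 400 to 478 CPM in CCI and to 381 and 401 CPM in SHAM, with none of 8 called. The part of microglial content in the levels of Plxnb2 and Nrp1 was not tested, nor was that of endothelial content in Nrp1.

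**Figure D3:**
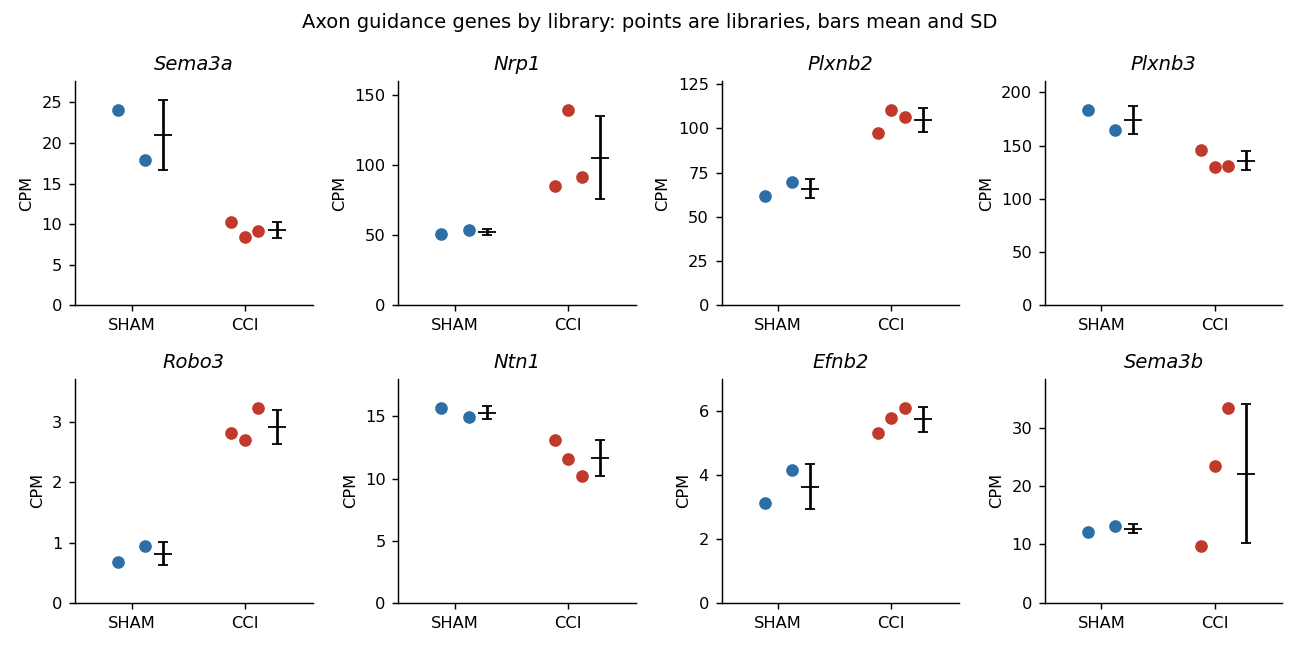
CPM (vertical axis, from 0) of 8 guidance genes in each library, with the mean and SD of each group at its right. The groups do not overlap for Sema3a, Nrp1, Plxnb2, Plxnb3, Robo3, Ntn1 or Efnb2, while Sema3b has CCI 1 below SHAM and the other CCI libraries above it.

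The remaining plexin genes did not pass. Plxnb3, a receptor of Sema5a known from oligodendrocytes, stood at 146, 130 and 131 CPM in CCI and at 183 and 165 CPM in SHAM, with no overlap (log2 fold change -0.36, SE 0.10, adjusted p = 0.129). The summed oligodendrocyte markers were 27140 to 32620 CPM in CCI against 37890 and 38640 CPM in SHAM, with none of 10 called, and their part in the level of Plxnb3 was not tested. Plxnd1, the receptor of Sema3e, stood at 21.7, 21.6 and 25.6 CPM in CCI and at 14.2 and 19.4 CPM in SHAM (log2 fold change 0.45, SE 0.16, adjusted p = 0.217). For its ligand gene Sema3e the value was -0.17 on the log2 scale (SE 0.10, adjusted p = 0.466). Plxna2, a class A plexin, was at 126, 154 and 171 CPM in CCI and at 100 and 129 CPM in SHAM. SHAM 2 lay above CCI 1, and the difference did not pass (log2 fold change 0.39, SE 0.16, adjusted p = 0.284). Plxna3 was level between the groups (log2 fold change 0.00, SE 0.11).

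Robo3 had the largest log2 fold change of the 55 genes. It encodes the divergent Robo receptor that commissural axons need to cross the midline. It stood at 2.82, 2.70 and 3.23 CPM in CCI and at 0.682 and 0.949 CPM in SHAM, from 61, 68 and 61 counts against 15 and 19. The CCI libraries lay close together and well above SHAM. The log2 fold change was 1.84 (SE 0.33, 3.57-fold, adjusted p = 0.0186). The call was lost without CCI 3 (1.75, adjusted p = 0.0511), without SHAM 1 (1.61, adjusted p = 0.272) and without SHAM 2 (2.08, adjusted p = 0.123). It was also lost in the deposited TPM table, where Robo3 lay between 0.14 and 0.70, with a log2 fold change of 1.42 on the log2(TPM + 0.1) scale (adjusted p = 0.0770) and of 0.75 on the log2(TPM + 0.5) scale (adjusted p = 0.109). In CCI 1 alone against SHAM the log2 fold change was 1.78.

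Robo4, a Robo receptor known from blood vessel endothelium, appeared to go the other way, but its count is divided between rows. The row Robo4 stood at 2.36, 2.34 and 1.70 CPM in CCI and at 4.91 and 3.85 CPM in SHAM (log2 fold change -1.03, SE 0.27, adjusted p = 0.0947). The row LOC100911068 carries the gene ID that the GRCr8 gene table gives to Robo4, and in all 5 libraries its fractional counts and those of Robo4 added up to whole numbers within 0.005 counts. That row stood at 10.7, 11.3 and 10.6 CPM in CCI and at 6.45 and 7.20 CPM in SHAM (log2 fold change 0.67, SE 0.16, adjusted p = 0.0647). The row Robo4 held 18.2%, 17.3% and 13.7% of their joint counts in CCI and 43.2% and 34.7% in SHAM. Summed, they stood at 13.1, 13.7 and 12.3 CPM in CCI and at 11.4 and 11.0 CPM in SHAM, and the log2 fold change was 0.22 (SE 0.14, adjusted p = 0.480). This sum was chosen after the values were seen.

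In the GRCr8 table the spans of Robo3 and Robo4 overlap by 200 bases. The counts of Robo3 were whole numbers in all 5 libraries. Whether reads from the overlap were counted to one row or the other cannot be read from the counts, so Robo3 carries this uncertainty too.

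**Figure D4:**
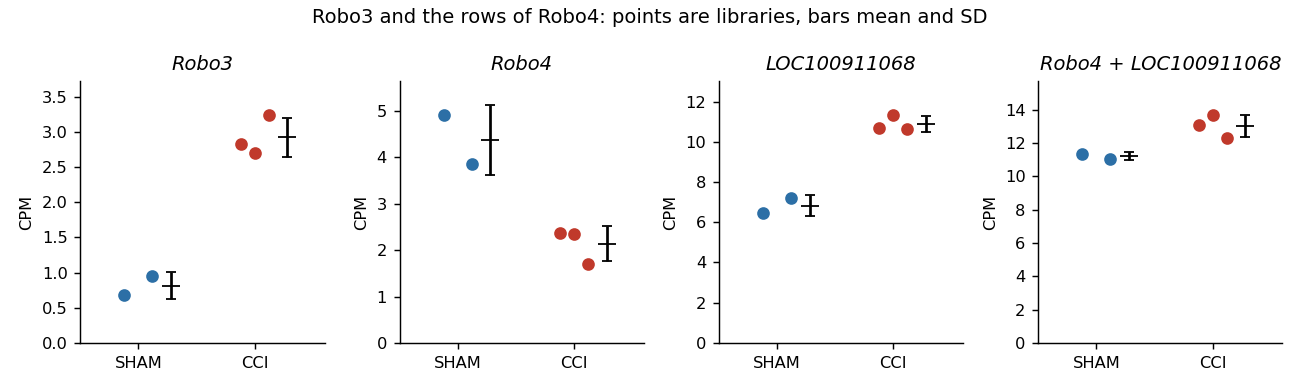
CPM (vertical axis, from 0) of Robo3, of the row Robo4, of the row LOC100911068 and of the last 2 summed, in each library, with the mean and SD of each group. Robo4 is lower and LOC100911068 higher in every CCI library, and their sum runs from 12.3 to 13.7 in CCI and from 11.0 to 11.4 in SHAM.

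The main Slit receptors showed no call. Robo1 was at 69.3 to 79.9 CPM in CCI against 81.3 and 85.0 CPM in SHAM (log2 fold change -0.17, SE 0.10, adjusted p = 0.469). Robo2, the most abundant Robo gene per length, was at 148, 184 and 171 CPM in CCI and at 157 and 167 CPM in SHAM (log2 fold change 0.05, SE 0.12, adjusted p = 0.869). Of their ligands, Slit1 was at 87.1, 98.6 and 91.9 CPM in CCI and at 75.9 and 86.9 CPM in SHAM (log2 fold change 0.19, SE 0.11, adjusted p = 0.445). Slit3 was at 28.7, 21.4 and 26.5 CPM in CCI and at 33.8 and 29.0 CPM in SHAM, without overlap (log2 fold change -0.30, SE 0.15, adjusted p = 0.359). Slit2 lay between them, with a log2 fold change of 0.10. None of the 3 Slit genes had an unadjusted p under 0.05 in the edgeR fit.

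Of all tested genes, 52.0% had a log2 fold change above 0. All 4 netrin genes had a log2 fold change below 0, from -0.39 to -0.01, and none was called. Exceptions to that direction were Ntn4, at 0.012 and 0.013 in the deposited TPM table, at 0.042 without CCI 1 and at 0.084 without SHAM 1, and Ntn5, at 0.21 without SHAM 2. Ntn1, the netrin that attracts axons through Dcc, stood at 13.1, 11.6 and 10.2 CPM in CCI and at 15.7 and 14.9 CPM in SHAM. Its groups did not overlap (log2 fold change -0.39, SE 0.15, adjusted p = 0.243), and it was the netrin gene with an unadjusted p under 0.05. Ntn3 also had no overlap, with 9.95 to 11.8 CPM in CCI against 12.8 and 12.9 CPM in SHAM. Ntn4, a basement membrane netrin and the most abundant of the 4 per length, was level, at 17.8 to 20.7 CPM in CCI and at 18.2 and 20.7 CPM in SHAM.

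No ephrin or Eph receptor gene passed the test. Efnb2, the transmembrane ephrin that marks arteries, stood at 5.32, 5.80 and 6.10 CPM in CCI and at 3.14 and 4.15 CPM in SHAM. The groups did not overlap, but its log2 fold change of 0.66 (SE 0.22, adjusted p = 0.193) did not pass. Efnb3, the most abundant ephrin per length, was at 25.7, 30.7 and 32.2 CPM in CCI and at 20.4 and 30.4 CPM in SHAM (log2 fold change 0.22, SE 0.18, adjusted p = 0.589). The spread between the SHAM libraries was larger than the difference between the group means. Over the 7 ephrin genes, 6 had a log2 fold change above 0 (4 without SHAM 1), with a median of 0.22. An unadjusted p under 0.05 was found for 2 of them in the edgeR fit. The shares over all tested genes were 52.0% above 0 and 15.9% with such a p.

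The 11 Eph receptor genes had a median log2 fold change of -0.05 and a range from -0.24 for Epha3 to 0.40 for Epha1. None had an unadjusted p under 0.05 in the edgeR fit. Epha10, a receptor without kinase activity, had the smallest p, with 41.9, 39.3 and 41.8 CPM in CCI against 47.4 and 46.3 CPM in SHAM (log2 fold change -0.19, SE 0.10, adjusted p = 0.392). Ephb6, which also lacks kinase activity and was the most abundant Eph gene per length, was at 86.5, 106 and 74.9 CPM in CCI and at 97.8 and 96.0 CPM in SHAM (log2 fold change -0.12, SE 0.14, adjusted p = 0.710). Epha4, the receptor for which ephrin signalling in spinal locomotor circuits is best known, was at 107 to 109 CPM in CCI against 113 and 120 CPM in SHAM. Neither the likelihood ratio test nor DESeq2 called a gene among the Eph receptors, ephrins, netrins or Slits.

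**Figure D5:**
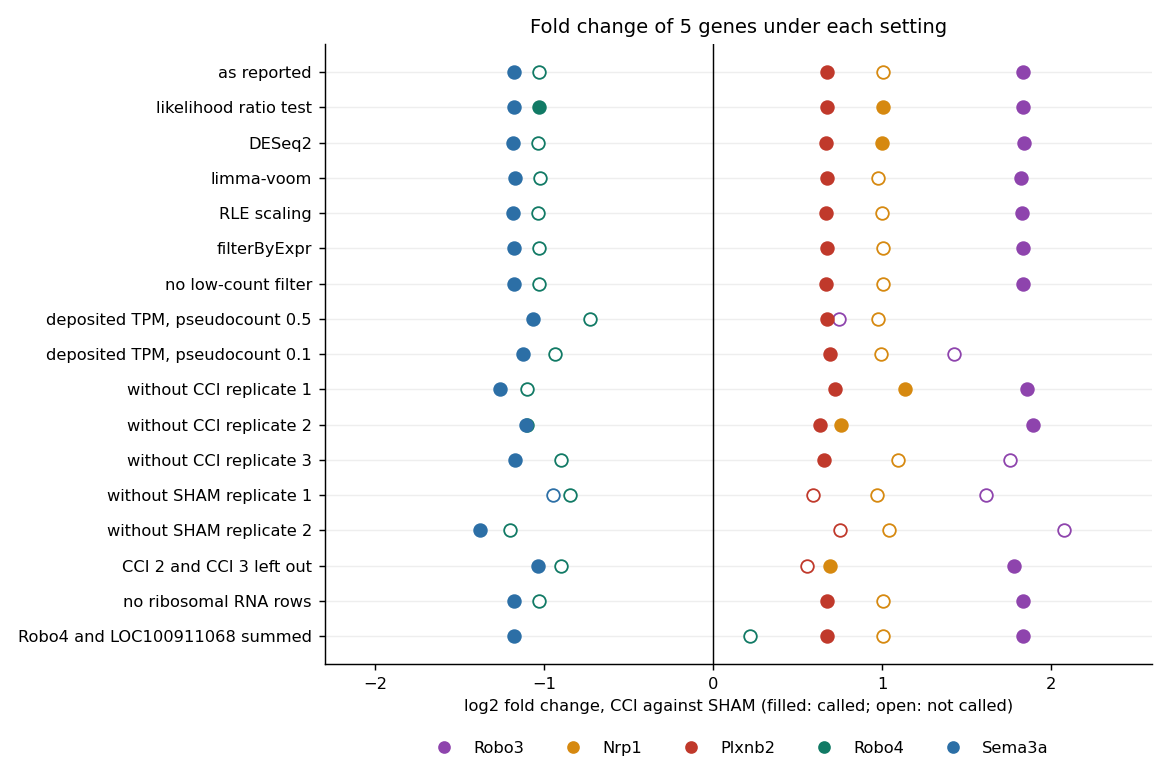
The log2 fold change (horizontal axis) of Robo3, Nrp1, Plxnb2, Robo4 and Sema3a in the reported fit and under each other setting (rows), with filled points where the gene was called; with CCI 2 and CCI 3 left out, 1 CCI library remains. Sema3a, Plxnb2, Robo3 and Nrp1 keep their side of 0 throughout, and Robo4 crosses 0 when its rows are summed.

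Levels were compared between genes per transcript length, in the deposited TPM table. Sema7a led with a mean of 51.8, followed by Sema6d (45.2), Sema4d (40.9), Plxnb3 (30.7), Ephb6 (27.9) and Nrp1 (27.0). The first 3 do not differ beyond their spread over libraries, with 39.3 to 64.3 for Sema7a, 42.4 to 50.5 for Sema6d and 37.8 to 43.9 for Sema4d. Robo3 was the lowest of the 55 genes, with a mean of 0.445, below Efna4 (0.737) and Ntn5 (0.812).

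Summed over a family on the same per-length scale, neuropilins were at 43.3, 59.3 and 45.3 in CCI and 32.1 and 31.2 in SHAM. Netrins were at 26.5, 28.6 and 26.3 in CCI and at 31.6 and 29.9 in SHAM. Semaphorins were at 304, 297 and 342 in CCI and at 311 and 314 in SHAM, with overlap. The Eph receptors also overlapped, at 121 to 127 in CCI and 124 and 127 in SHAM. So did the ephrins, at 37.56 to 43.77 in CCI and 29.4 and 37.61 in SHAM. Plexins did not overlap, at 76.09 to 82.34 in CCI and 71.35 and 74.74 in SHAM. Neither did Slits, at 44.61 to 46.09 in CCI and 42.32 and 41.38 in SHAM. Robos were without overlap too, at 41.03 to 43.45 in CCI and 43.64 and 43.65 in SHAM. These sums were not tested.

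Of 88 other genes of the pathway (netrin receptors, intracellular effectors and myelin growth inhibitors), 83 were tested, 2 rose and none fell (2.41%, against 2.84% of all tested genes), with a median log2 fold change of 0.03. Fes, a cytoplasmic tyrosine kinase of myeloid cells that also acts downstream of Sema3a, stood at 21.7, 23.4 and 16.8 CPM in CCI and at 7.50 and 6.60 CPM in SHAM. It rose by 1.55 on the log2 scale (SE 0.18, adjusted p = 0.00246), and the call was lost without SHAM 1 (adjusted p = 0.0561) or SHAM 2 (adjusted p = 0.0622). Sdc1, a heparan sulfate proteoglycan of a class that binds Slits, stood at 11.9, 7.82 and 5.83 CPM in CCI and at 3.32 and 2.50 CPM in SHAM. It rose by 1.54 (SE 0.33, adjusted p = 0.0488), close to the threshold. That call was lost without SHAM 1 (adjusted p = 0.307), without SHAM 2 (adjusted p = 0.336), with RLE scaling (adjusted p = 0.0527), with limma-voom (adjusted p = 0.0945), without the ribosomal RNA rows (adjusted p = 0.0508) and in the deposited TPM table (adjusted p = 0.0614 with a pseudocount of 0.5 and 0.0531 with 0.1). Sdc3, another syndecan and the gene with the smallest p of the Slit and Robo intermediates, stood at 193, 158 and 188 CPM in CCI and at 263 and 256 CPM in SHAM, without overlap. Its log2 fold change of -0.53 (SE 0.11, adjusted p = 0.0423) missed the call because the fold was under 1.5. It was called without CCI 1 (-0.59, adjusted p = 0.0302). Microglia markers (summed levels above) were also higher in every CCI library, and their part in the level of Fes was not tested.

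No gene was called in the other 4 groups of that list. Of 11 netrin and RGM receptor and ligand genes, the smallest p was that of Unc5b, a repulsive netrin receptor (log2 fold change -0.45, SE 0.13, adjusted p = 0.132). Of 14 Eph and ephrin intermediates it was that of Adam10, a protease that cleaves ephrins (0.32, SE 0.11, adjusted p = 0.187). Of 8 tested genes of myelin inhibitors and their receptors it was that of Mag, an axon growth inhibitor of myelin (-0.37, SE 0.14, adjusted p = 0.223).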

How the data were processed

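Per the submitters' processing notes, kallisto 0.44.0 and the build rn6 lie behind the estimated counts per gene symbol that the authors deposited. Their second deposited table, named TPM and scaled by trimmed mean of M-values per the labels, counts here as a signal, since its column totals differ. The gene annotation is not given in the sources used here. Groups came from the treatment label, with replicates numbered in accession order. Estimated counts were rounded, and genes with 10 or more counts in at least 2 libraries (13511 of 17321) were fitted by the robust quasi-likelihood test of edgeR 4.0.16 under R 4.3.3 (two-sided, TMM scaling, Benjamini-Hochberg over all tested genes, 3 residual degrees of freedom). Each SE was taken as the log2 fold change over the root of its F statistic. Tried as alternatives were edgeR's likelihood ratio test, DESeq2 1.42.0, limma 3.58.1 (voom, and the TPM table with pseudocounts of 0.5 and 0.1), RLE scaling, 2 other filters, no ribosomal RNA rows and fewer libraries. A left-out SHAM library leaves 1, which is assumed to vary like CCI, and without CCI 2 and CCI 3 the library CCI 1 is assumed to vary like SHAM. In data simulated for CCI against SHAM (13434 genes run), the test called 22.4% of genes changed 1.5-fold. It called 71.6% of those changed 2-fold and 95.5% of those changed 4-fold. It also called 15 genes that had not been changed, so some calls in the real data may be false. A call in the simulation also required an estimated fold of at least 1.5, so a change of that size could be missed on this ground alone. Genes of the lowest levels were not among those changed.

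The members and lists were chosen with earlier results of these data known. Named are called members, those with an unadjusted p under 0.05, the smallest p and highest level per family, and up to 3 called or the smallest-p gene of each pathway list; a few others (Sema3b, Sema3e, Sema3g, Sema4c, Sema4d, Sema6d, Nrp2, Ntn3, Ntn5, Slit2, Robo1, Plxna3, Epha1, Epha3, Epha4, Efna4, Sdc3) were named after their values were seen. The smallest-p gene of 1 pathway list is not reported here. All 55 symbols matched the GRCr8 gene table, whose coordinates served only to see that Robo3 and Robo4 overlap. Figures were drawn with matplotlib 3.10.9.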

Additional observations from a re-analysis of the deposited data

How the results depend on the processing

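The call counts depended on the test and on single libraries. Over all genes, 349 were higher and 35 lower. The likelihood ratio test gave 571 and 75, DESeq2 gave 545 and 69, and leaving out each library in turn gave 71 (without SHAM 1) to 644 (without CCI 1) higher and 0 (without SHAM 1) to 122 (without CCI 1) lower. Among the 55 guidance genes, 2 were higher and 1 lower. The deposited TPM table gave 1 higher at either pseudocount, the likelihood ratio test gave 2 lower, and leaving out a library gave 0 to 5 higher and 0 to 1 lower. Without SHAM 1 no guidance gene was called by edgeR, while 4 had an unadjusted p under 0.05. The median of the 55 log2 fold changes was 0.0056 to 0.18 with a library left out and -0.0072 with CCI 2 and CCI 3 both left out, against 0.10. The cause was not tested.

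Of 640 values of 40 named genes under 16 alternatives, 592 kept their direction and side of the threshold, 18 lost a call, 9 gained one and 21 changed sign. With a library left out, signs changed in Efnb3 (-0.043 to 0.52), Ntn4 (-0.11 to 0.084), Ntn5 (-0.81 to 0.21), Robo2 (-0.021 to 0.13), Nrp2 (-0.088 to 0.082), Slit2 (-0.02 to 0.23) and Plxna3 (-0.099 to 0.10). Without CCI 2 and CCI 3 they changed in Robo2 (-0.14), Sema3b (-0.40), Nrp2 (0.060) and Plxna3 (-0.0072). The TPM table changed that of Ntn4 (0.012 and 0.013) and Nrp2 (0.026 and 0.026), and RLE scaling and DESeq2 that of Plxna3 (-0.0022 and -0.0022). Robo4 was at 0.22 when summed with LOC100911068. No paired analysis was possible because the labels give no numbers shared between groups. With 22.4% of simulated 1.5-fold changes called, a missed threshold does not show that a gene was level.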
